A study of Mus musculus with 12 samples.

Results

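The genes described here are 10 transcriptional readouts and brakes of the ERK pathway in BV2 mouse microglia. They are the dual-specificity phosphatases Dusp4, Dusp5 and Dusp6, the Sprouty genes Spry1, Spry2 and Spry4, the Sprouty-related genes Spred1 and Spred2, and the ETS transcription factors Etv4 and Etv5. They were found by gene name among the 21834 genes of the deposited count table, and 8 of the 10 had enough counts to be tested. The 10 were selected on known roles and with the group differences of these libraries in view. Their values are therefore a description. Counts of members past the threshold of the fit over all genes are printed in the same sense, since the choice of genes bears on them. p-values are given only for other genes of the pathway. The lists of those genes were also written with earlier results of these data known. Most genes named from them were picked for a large interaction that passed, so their p-values are no independent evidence.

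BV2 cells are mouse microglia that were immortalized and grow as a line. The study compared a stable line that carries an shRNA against Anxa2 (shAnxa2) with a line that carries a control shRNA (shCtrl), each without treatment (CTRL) or after oxygen-glucose deprivation and reoxygenation (OGD/R), a culture model of ischemia and reperfusion. The 4 groups, shCtrl-CTRL, shCtrl-OGDR, shAnxa2-CTRL and shAnxa2-OGDR, held 3 libraries each, and every cell had been transduced with a lentiviral shRNA vector and selected with puromycin. By the labels, deprivation lasted 4 h and reoxygenation 12 h, while the study's methods give a longer reoxygenation. Each shRNA is represented by 1 line, so a difference between the lines cannot be told apart from other differences between these lines. The groups follow the sample titles, because a further label, for the cell type, follows the treatment and goes against the titles. p-values measure the spread among 3 libraries per group.

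ERK is the last kinase of a relay in which receptor tyrosine kinases activate RAS, RAF and MEK. Active ERK switches on transcription of its own brakes, so transcripts such as Dusp6, Spry2 and Spred2 are widely read as a trace of recent ERK activity. DUSP proteins remove the activating phosphates from MAP kinases, Sprouty and Spred proteins act upstream at the level of RAS and RAF, and Etv4 and Etv5 carry the signal on as transcription factors. In microglia and macrophages the main receptor that feeds this relay is Csf1r, the receptor of CSF1 and IL-34.

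The libraries held 19521877 to 27288843 counts. Levels are in CPM, counts per megaread of library total, where each total was multiplied by the TMM factor that edgeR computes. Anxa2, which the shRNA targets, followed the labels. Its mean was 172 CPM (SD 6.36, n = 3) without and 279 CPM (SD 24.3) with OGD/R in the control line, against 40.4 CPM (SD 4.86) and 19.6 CPM (SD 1.26) in the knockdown line. All 10 listed microglia and macrophage markers had enough counts to be tested, and their summed level was 1315 to 1697 CPM per library, with the homeostatic markers Tmem119 and P2ry12 low, at means of 5.65 and 2.09 CPM. Markers of neurons and fibroblasts summed to at most 0.755 and 0.376 CPM, with Snap25, Syt1 and Dcn at 0 counts throughout. Astrocyte markers summed to at most 0.97 CPM and oligodendrocyte markers to 3.97 to 6.3 CPM, with Aqp4 and Mog at 0 counts. No listed gene checks the OGD/R labels as Anxa2 checks those of the shRNA. Over all genes tested, the mean distance between libraries (root mean square difference of log2(CPM + 0.1)) was 0.416 between shCtrl-CTRL and shAnxa2-OGDR and 0.453 between shCtrl-OGDR and shAnxa2-CTRL. It was 0.584 between shCtrl-CTRL and shCtrl-OGDR, 0.496 between the shAnxa2 groups, and 0.562 and 0.673 between the lines without and after OGD/R. For each group, the nearest other group was thus the one of the other line with the opposite OGD/R label. Of the 5239 genes that passed the test after OGD/R in both lines, 98.6% moved in opposite directions, so opposite changes in the lines are a property of the whole table. Anxa2 itself was higher after OGD/R in shCtrl cells (log2 fold change 0.70) and lower in shAnxa2 cells (−1.04). Whether the OGD/R and CTRL labels of 1 line were exchanged was not tested. With such an exchange every OGD/R change of that line would turn its direction, and the comparisons between the lines and the interactions would change with it, so all directions given here hold for the libraries as labelled. In the library of shAnxa2-OGDR replicate 1, the gene Lars2 had 66525 counts, against at most 2670 in each other library. The log2 fold changes printed for single members that rest on this group are also given without that library. Levels, ratios and the values of other genes are mostly given with it.

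Per kilobase of exon, the feedback regulators spanned a wide range of levels. Spred1 was highest, at a mean of 30.3 CPM per kb over the 12 libraries, followed by Dusp4 at 24.9. Spred2 (12.4) and Etv5 (11.9) came next, then Spry2 (7.24), Dusp6 (4.63), Dusp5 (3.16) and Etv4 (1.93 CPM per kb). Spry4 and Spry1 were near the limit of detection, at 0.0174 and 0.01 CPM per kb. The most abundant members varied least over the libraries. The SD of log2(CPM + 0.1) over the 12 libraries was 0.12 for Spred1 and 0.18 for Dusp4, and 0.93 for Etv4 and 1.12 for Dusp6.

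Dusp6 (ENSMUSG00000019960, mm39 chr10:99099093-99103351, plus strand) encodes a cytoplasmic phosphatase that is selective for ERK, and its promoter is shown because, on the log2 scale, it varied most over the libraries among the 8 genes with enough counts. The sequence is RefSeq's, from 250 bases before to 50 bases after the start site, on the plus strand at chr10:99262981-99263280 of GRCm38.p6. It held none of the 4 motifs searched for. These were the ETS core in the form CCGGAA, the AP-1 site, the cyclic AMP response element and the CArG box.
Dusp6: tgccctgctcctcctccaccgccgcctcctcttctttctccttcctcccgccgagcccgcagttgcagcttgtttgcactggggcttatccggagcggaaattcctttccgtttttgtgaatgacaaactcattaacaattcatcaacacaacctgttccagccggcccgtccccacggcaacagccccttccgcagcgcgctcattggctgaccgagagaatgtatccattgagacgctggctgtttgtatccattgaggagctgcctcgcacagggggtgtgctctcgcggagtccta

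In the control line Dusp6 had 411, 500 and 514 counts without OGD/R and 59, 86 and 96 counts after it. In the knockdown line it had 206, 219 and 328 counts without OGD/R and 468, 612 and 563 counts after it. No pair of groups overlapped once scaled, and the order from low to high was shCtrl-OGDR, shAnxa2-CTRL, shCtrl-CTRL and shAnxa2-OGDR. The mean levels in that order were 3.5 ± 1.32, 11.2 ± 1.59, 18.1 ± 0.878 and 25.2 ± 1.87 CPM (SD, n = 3), a 7.19-fold span. After OGD/R Dusp6 was thus 5.31-fold lower in shCtrl cells (log2 fold change −2.41, standard error 0.153) and 2.23-fold higher in shAnxa2 cells (1.16, standard error 0.127). After OGD/R it was 7.37-fold higher in shAnxa2 than in shCtrl cells (2.88, standard error 0.151), and without OGD/R it was 1.61-fold lower (−0.69, standard error 0.129). The OGD/R change in shAnxa2 minus that in shCtrl was 3.57 on the log2 scale (standard error 0.2). Without the library with the high Lars2 count these values were 1.19 for OGD/R in shAnxa2 cells, 2.92 between the lines after OGD/R and 3.60 for the difference. Since the RNA was taken in bulk, fewer cells with the transcript and less transcript per cell cannot be told apart.

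The share of counts on mitochondrially encoded genes also followed the groups. It was 0.402% to 0.472% in shCtrl-CTRL and 0.331% to 0.38% in shAnxa2-OGDR, against 0.251% to 0.272% in shCtrl-OGDR and 0.272% to 0.286% in shAnxa2-CTRL. The groups with the lower shares were also the groups with less Dusp6, Dusp5 and Etv5, and by their means with less Spred2. Dusp4, Spry2, Spred1 and Etv4 did not follow the share. Etv4, for example, was at 11.5 CPM in shAnxa2-CTRL and 3.3 CPM in shCtrl-CTRL. The part of the mitochondrial share in the differences between groups was not tested.

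Dusp5 (ENSMUSG00000034765, mm39 chr19:53517540-53530862, plus strand) encodes a nuclear phosphatase that acts on ERK. Its promoter (RefSeq, GRCm38.p6, plus strand, chr19:53528895-53529194) is shown because it held 2 adjacent CArG boxes, the sequence bound by serum response factor, in capitals.
Dusp5: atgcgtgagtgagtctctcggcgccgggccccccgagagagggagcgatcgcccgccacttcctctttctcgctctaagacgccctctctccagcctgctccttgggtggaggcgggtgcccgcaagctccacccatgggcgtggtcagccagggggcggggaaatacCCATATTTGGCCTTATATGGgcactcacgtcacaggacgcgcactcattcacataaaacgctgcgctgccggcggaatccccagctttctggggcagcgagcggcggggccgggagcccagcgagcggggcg

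Dusp5 had 228, 282 and 252 counts in shCtrl-CTRL, 93, 116 and 91 in shCtrl-OGDR, 169, 150 and 187 in shAnxa2-CTRL and 191, 245 and 195 in shAnxa2-OGDR. The shCtrl-OGDR libraries were lowest, at 4.24 ± 0.537 CPM (SD, n = 3), then shAnxa2-CTRL at 7.64 ± 0.553 CPM, while shAnxa2-OGDR (9.65 ± 0.163 CPM) and shCtrl-CTRL (9.71 ± 0.558 CPM) overlapped. The log2 fold change after OGD/R was −1.20 (standard error 0.12) in shCtrl cells and 0.34 (standard error 0.114) in shAnxa2 cells. Between the lines it was −0.35 without OGD/R and 1.19 after it, and the difference of the OGD/R changes was 1.54 (standard error 0.166). Without the library with the high Lars2 count the values that rest on it were 0.33 for OGD/R in shAnxa2 cells, 1.19 between the lines after OGD/R and 1.53 for the difference.

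Dusp4 (ENSMUSG00000031530, mm39 chr8:35274451-35287048, plus strand), a nuclear phosphatase with a broader choice of MAP kinases, did not share this pattern. It had 1505, 1604 and 1723 counts in shCtrl-CTRL, 1632, 1510 and 1084 in shCtrl-OGDR, 1540, 1509 and 1958 in shAnxa2-CTRL and 1488, 1855 and 1693 in shAnxa2-OGDR. Scaled, these were 61.7 ± 2.51, 59.0 ± 4.31, 75.2 ± 2.58 and 77.3 ± 4.36 CPM (SD, n = 3). Within each line the CTRL and OGDR libraries overlapped, and every shAnxa2 library lay above every shCtrl library. The log2 fold changes after OGD/R were −0.06 in shCtrl cells and 0.04 in shAnxa2 cells, with standard errors of 0.0595 and 0.0588. Between the lines the log2 fold change was 0.29 without OGD/R (standard error 0.0589) and 0.39 after it (standard error 0.0594). Without the library with the high Lars2 count, Dusp4 had 0.05 for OGD/R in shAnxa2 cells and 0.40 between the lines after OGD/R. The ratio of Dusp6 to Dusp4 counts, read only as a difference between groups because the genes differ in length, was 0.294 ± 0.0196 in shCtrl-CTRL and 0.0606 ± 0.0264 in shCtrl-OGDR, and 0.149 ± 0.0172 and 0.326 ± 0.00974 in the corresponding shAnxa2 groups.

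**Figure D1:**
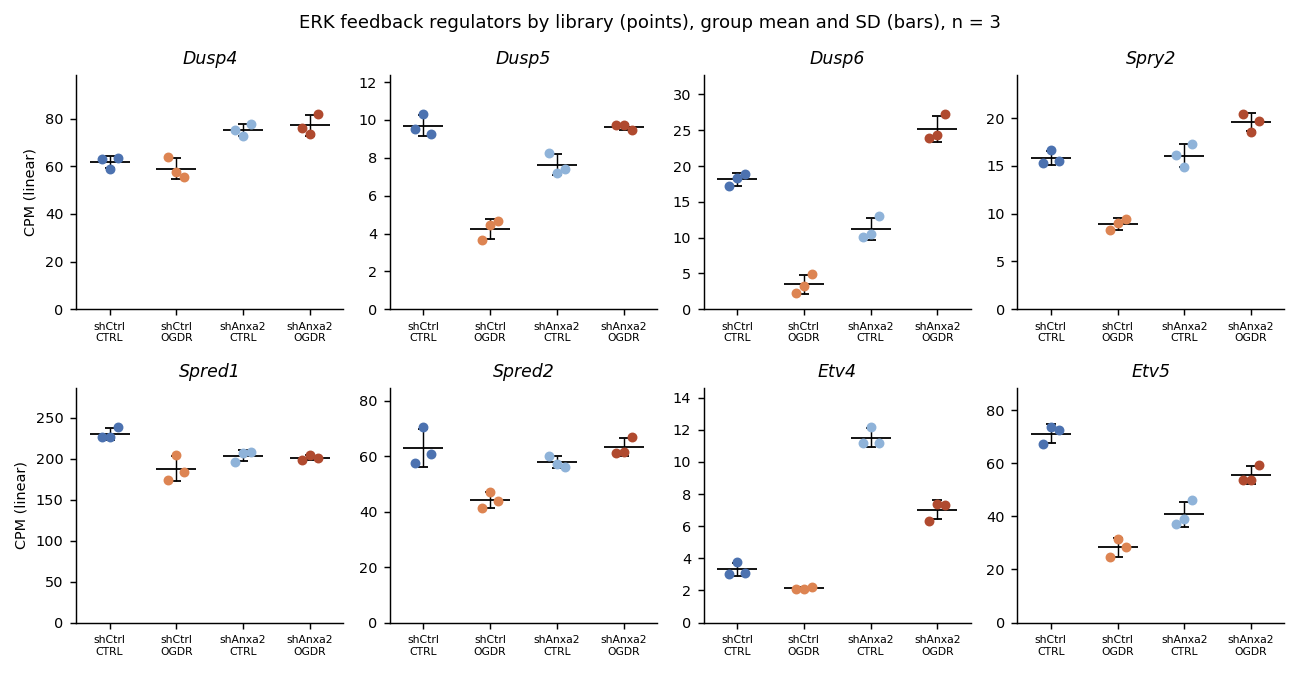
Level of the 8 feedback regulators with enough counts, in CPM on a linear axis from 0, in each library (points) with the group mean and SD (bars, n = 3). The shCtrl-OGDR libraries have the lowest mean for each of the 8 genes, and Dusp6 ranges from 3.5 to 25.2 CPM between group means.

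Spry2 (ENSMUSG00000022114, mm39 chr14:106129381-106134253, minus strand) encodes an inhibitor that uncouples receptor kinases from RAS and RAF. Its promoter (RefSeq, GRCm38.p6, minus strand, chr14:105896770-105897069) is shown because, of the members' promoters described here, it alone held the ETS core in the form CCGGAA. The core, in capitals, lies after the start site.
Spry2: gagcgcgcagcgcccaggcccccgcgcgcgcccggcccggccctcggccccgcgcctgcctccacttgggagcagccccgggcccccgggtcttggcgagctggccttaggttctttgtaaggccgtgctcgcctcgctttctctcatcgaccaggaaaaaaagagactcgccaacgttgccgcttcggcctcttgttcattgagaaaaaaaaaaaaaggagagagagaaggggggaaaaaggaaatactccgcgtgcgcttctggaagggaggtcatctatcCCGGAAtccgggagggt

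Spry2 had 366, 456 and 423 counts in shCtrl-CTRL, 212, 236 and 185 in shCtrl-OGDR, 329, 310 and 434 in shAnxa2-CTRL and 401, 467 and 406 in shAnxa2-OGDR. The untreated groups of the lines overlapped, at 15.9 ± 0.757 and 16.1 ± 1.16 CPM (SD, n = 3). The shCtrl-OGDR group lay below them, at 8.93 ± 0.597 CPM, and the shAnxa2-OGDR group above them, at 19.6 ± 0.957 CPM. The log2 fold change after OGD/R was −0.83 (standard error 0.0926) in shCtrl cells and 0.28 (standard error 0.0869) in shAnxa2 cells. Between the lines it was 0.02 without OGD/R (standard error 0.087) and 1.13 after it (standard error 0.0924), and 1.10 without the library with the high Lars2 count. The difference of the OGD/R changes was 1.11 (standard error 0.127). Without that library this difference was 1.08 and the OGD/R change in shAnxa2 cells 0.25.

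The other Sprouty genes were barely detected. Spry1 had 0 to 3 counts and Spry4 0 to 5 counts per library. Both failed the filter on low counts, and differences between groups were not detectable for them at this depth.

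Spred1 (ENSMUSG00000027351, mm39 chr2:116951855-117012760, plus strand) and Spred2 (ENSMUSG00000045671, mm39 chr11:19874375-19974026, plus strand) encode membrane proteins that bring the RAS inactivator neurofibromin to RAS. Spred2 had 1376, 1927 and 1652 counts in shCtrl-CTRL, 1057, 1232 and 860 in shCtrl-OGDR, 1232, 1188 and 1412 in shAnxa2-CTRL and 1201, 1550 and 1381 in shAnxa2-OGDR. The shCtrl-OGDR libraries, at 44.1 ± 2.84 CPM (SD, n = 3), lay below those of each other group. The neighbouring groups above it overlapped, at 57.8 ± 2.16 CPM in shAnxa2-CTRL, 62.9 ± 6.84 CPM in shCtrl-CTRL and 63.3 ± 3.21 CPM in shAnxa2-OGDR. The log2 fold change of Spred2 after OGD/R was −0.51 (standard error 0.0694) in shCtrl cells and 0.13 (standard error 0.0691) in shAnxa2 cells. Between the lines it was −0.12 without OGD/R and 0.52 after it, with standard errors of 0.0684 and 0.0701. Without the library with the high Lars2 count, Spred2 had 0.15 for OGD/R in shAnxa2 cells, 0.54 between the lines after OGD/R and 0.67 for the difference of the OGD/R changes, in place of 0.64.

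Spred1 had 5424, 6172 and 6500 counts in shCtrl-CTRL, 4463, 5350 and 3600 in shCtrl-OGDR, 4003, 4304 and 5250 in shAnxa2-CTRL and 3885, 5141 and 4135 in shAnxa2-OGDR. The shCtrl-CTRL group was highest, at 231 ± 7.24 CPM (SD, n = 3), and lay above all other libraries. The other 3 groups, at 188 ± 15.1 CPM in shCtrl-OGDR, 201 ± 3.06 CPM in shAnxa2-OGDR and 204 ± 7.01 CPM in shAnxa2-CTRL, each overlapped their neighbour in this order. The log2 fold change after OGD/R was −0.30 (standard error 0.0526) in shCtrl cells and −0.02 (standard error 0.0529) in shAnxa2 cells, or −0.0094 without the library with the high Lars2 count. Between the lines after OGD/R it was 0.10, and 0.11 without that library. The difference of the OGD/R changes was 0.28, and 0.29 without that library. Spred1 thus differed less between groups than Spred2. The ratio of Spred1 to Spred2 counts was 4.19 to 4.34 in the shCtrl-OGDR libraries and 2.99 to 3.94 in the other libraries.

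Etv5 (ENSMUSG00000013089, mm39 chr16:22200059-22258469, minus strand) encodes an ETS transcription factor of the PEA3 group. It had 1608, 2011 and 1974 counts in shCtrl-CTRL, 631, 828 and 559 in shCtrl-OGDR, 759, 811 and 1158 in shAnxa2-CTRL and 1050, 1348 and 1223 in shAnxa2-OGDR. No pair of groups overlapped once scaled. The levels, from low to high, were 28.3 ± 3.47 CPM (SD, n = 3) in shCtrl-OGDR, 40.7 ± 4.67 CPM in shAnxa2-CTRL, 55.5 ± 3.32 CPM in shAnxa2-OGDR and 71.1 ± 3.48 CPM in shCtrl-CTRL. Etv5 was 2.51-fold lower after OGD/R in shCtrl cells (log2 fold change −1.33, standard error 0.0816) and 1.36-fold higher in shAnxa2 cells (0.44, standard error 0.0809). Between the lines the log2 fold change was −0.80 without OGD/R (standard error 0.0792) and 0.97 after it (standard error 0.0832). The difference of the OGD/R changes was 1.77 (standard error 0.115), and 1.80 without the library with the high Lars2 count. Without that library the OGD/R change in shAnxa2 cells was 0.47 and the difference between the lines after OGD/R 0.99.

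Etv4 (ENSMUSG00000017724, mm39 chr11:101660568-101676197, minus strand), of the same PEA3 group, had another pattern. It had 73, 103 and 84 counts in shCtrl-CTRL, 53, 55 and 43 in shCtrl-OGDR, 228, 253 and 281 in shAnxa2-CTRL and 124, 186 and 151 in shAnxa2-OGDR. The levels were 3.3 ± 0.408, 2.13 ± 0.0687, 11.5 ± 0.589 and 7.01 ± 0.596 CPM (SD, n = 3) in these groups, again with no overlap between any of them. Every shAnxa2 library lay above every shCtrl library, and within each line OGD/R libraries lay below untreated ones. Etv4 was 3.47-fold higher in shAnxa2 than in shCtrl cells without OGD/R (log2 fold change 1.79, standard error 0.126) and 3.31-fold higher after it (1.73, standard error 0.146). After OGD/R the log2 fold change was −0.64 (standard error 0.159) in shCtrl cells and −0.71 (standard error 0.117) in shAnxa2 cells. The difference of these changes was −0.07 (standard error 0.202), and 6.41e-04 without the library with the high Lars2 count. Without that library the OGD/R change in shAnxa2 cells was −0.64 and the difference between the lines after OGD/R 1.79. Over the whole table, 32 of the 5239 genes that passed the test in both lines were lower after OGD/R in both, and Etv4 was among them. The ratio of Etv4 to Etv5 counts was 0.0464 ± 0.00442 in shCtrl-CTRL, 0.0758 ± 0.00884 in shCtrl-OGDR, 0.285 ± 0.0371 in shAnxa2-CTRL and 0.127 ± 0.0103 in shAnxa2-OGDR.

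From RefSeq's promoter table of GRCm38.p6, 8 entries for 7 of the 10 genes are described, with 2 for Etv5. Dusp4, Spry4 and Etv4 are not among them. Both strands were searched for the ETS core CCGGAA, the AP-1 site TGANTCA, the cyclic AMP response element TGACGTCA and the CArG box. Of 32851 promoters of the same length, 14.9% held the ETS core, 7.81% the AP-1 site, 1.79% the cyclic AMP response element and 1.63% the CArG box. Shorter or other forms of the ETS core were not searched for. Among the members' entries CCGGAA was in that of Spry2 and the CArG boxes in that of Dusp5, and no other match was found. A match is a description of letters, not of binding. The members' promoters were rich in G and C, at 57% to 74% against a median of 52.7% over all promoters, and held 17 to 40 CpG dinucleotides against a median of 7.

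The first comparison was OGD/R in shCtrl cells. Of the 8 members in the fit, 7 were lower after OGD/R at an adjusted p below 0.05 (quasi-likelihood test of edgeR, Benjamini-Hochberg over 11626 genes), and none was higher. Dusp4 was the member that did not pass. Over all genes tested, 31.0% were lower and 32.4% higher by this rule. At least 2-fold lower were 3 members, Dusp5, Dusp6 and Etv5, and none was 2-fold higher, against 2.08% lower and 4.65% higher of all genes. The median log2 fold change of the 8 members was −0.74, and that of all genes was near 0. The members were selected with these contrasts in view, so in this and the other comparisons their counts are no test of the members, and nothing is read from them against the shares of all genes.

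In shAnxa2 cells, 4 members were higher after OGD/R by the same rule, Dusp5, Dusp6, Spry2 and Etv5, and 1, Etv4, was lower. Over all genes the shares were 28.2% higher and 26.8% lower. Dusp6 was the 1 member at least 2-fold higher and none was 2-fold lower, against 0.809% and 2.74% of all genes. The median of the members was 0.20. Without shAnxa2-CTRL replicate 2, the members that were higher numbered 2 in place of 4, because Dusp5 and Spry2 no longer passed.

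Between the untreated lines, 2 members were higher in shAnxa2 cells, Dusp4 and Etv4, and 4 were lower, Dusp5, Dusp6, Spred1 and Etv5. Over all genes 29.5% were higher and 29.7% lower. Etv4 was the 1 member that was at least 2-fold higher and none was 2-fold lower, against 3.84% and 1.83% of all genes. The median of the members was −0.15.

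Between the lines after OGD/R, 7 members were higher in shAnxa2 cells and none was lower. Spred1, at a log2 fold change of 0.10 (standard error 0.0529), was the exception. Over all genes 33.8% were higher and 34.2% lower. At least 2-fold higher were 4 members, Dusp5, Dusp6, Spry2 and Etv4, and none was 2-fold lower, against 3.66% and 6.43% of all genes. The median of the members was 1.05.

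The OGD/R change in shAnxa2 minus that in shCtrl, the interaction, was positive for 6 members, all but Dusp4 and Etv4, and negative for none by the same rule. Over all genes 34.9% had a positive and 35.1% a negative interaction. At least 2-fold were 4 members, Dusp5, Dusp6, Spry2 and Etv5, all positive, against 8.83% positive and 12.7% negative of all genes. The comparisons share libraries, so their values are given side by side and not as repeats of each other.

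**Figure D2:**
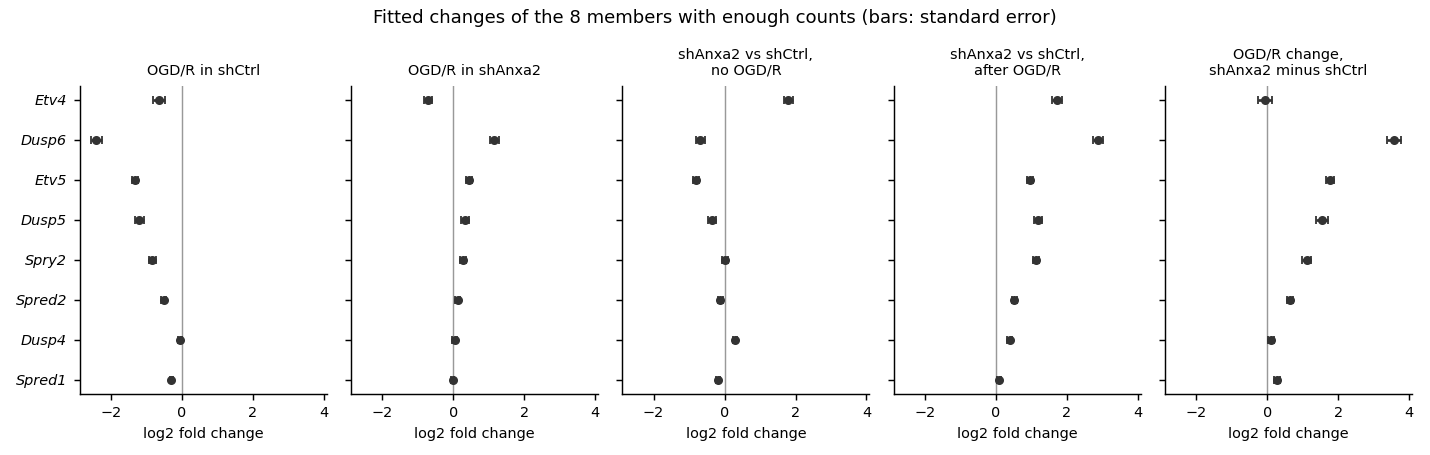
Fitted log2 fold change (points) with its standard error (bars) of the 8 tested feedback regulators in the 4 comparisons and for the OGD/R change in shAnxa2 minus that in shCtrl. Dusp6 has the largest values in 4 of the 5 panels, from −2.41 after OGD/R in shCtrl cells to 3.57 in the last panel, and Etv4 has the largest, 1.79, between the untreated lines.

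Some members of different families lay closer in pattern than members of 1 family. Measured over the 12 libraries, the centred difference of log2(CPM + 0.1) as a root mean square was smallest between Dusp5 and Spry2, at 0.167, and between Spred1 and Spred2, at 0.174. Dusp5 and Etv5 were 0.215 apart. Etv4 was 0.688 or more from every other member, and 0.961 from Etv5. Dusp6 and Dusp4 differed by 1.03. All genes of a library share its depth and its scaling, and the differences are a description.

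For the most abundant member of the DUSP, Sprouty and ETS families, the 5 most similar genes of the whole table were looked up by the same measure. The genes nearest to Dusp4 were Phb, H6pd, Phf19, Gusb and Chtop, at 0.0533 to 0.0601. For Spry2 they were Ankrd33b, Prmt5, Klhdc4, Clec5a and Slc16a6, at 0.107 to 0.115. For Etv5 they were Manf, Fancb, Cd3eap, Otud6b and Serpinf1, at 0.131 to 0.157. Dusp6, added after its values were seen, had no neighbour as close. Its nearest were Bmper (0.37), Tmem119 (0.419), Mtus1 (0.432), Slco4a1 (0.458) and Draxin (0.465). The measure is not scaled to a gene's own spread, so these distances do not rank how unusual the patterns are. Within groups, the SD of log2(CPM + 0.1) was 0.29 for Dusp6, 0.0762 for Dusp4, 0.086 for Spry2 and 0.133 for Etv5. Tmem119, a marker of homeostatic microglia, was at 4.83 CPM in shCtrl-CTRL, 1.87 in shCtrl-OGDR, 5.63 in shAnxa2-CTRL and 10.3 in shAnxa2-OGDR. With a pseudocount of 1, 1 of the 5 genes named for Dusp6 stayed among its nearest, so that list depends on how low values are treated.

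The rest of the pathway was followed in 6 lists that hold none of the 10 members, 116 genes of which 95 were tested. Over the 95 genes, 33 rose and 31 fell after OGD/R in shCtrl cells, 33 rose and 31 fell in shAnxa2 cells, and for the interaction 41 were positive and 38 negative. In percent these were 34.7% and 32.6% in shCtrl cells, 34.7% and 32.6% in shAnxa2 cells, and 43.2% and 40.0% for the interaction. Over all genes tested the shares were 32.4% and 31.0%, 28.2% and 26.8%, and 34.9% and 35.1%. The counts of each list below stand beside these shares of all genes. They are given by role, and no list was tested as a set. The lists were written with earlier results of these data known, so their counts are a description.

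The ERK output list, of transcripts known to be induced by ERK signalling, had 17 of 23 genes tested. After OGD/R in shCtrl cells 11 fell and 4 rose, and in shAnxa2 cells 12 rose and 4 fell. Between the lines after OGD/R 12 were higher and 4 lower in shAnxa2 cells, and without OGD/R 4 were higher and 10 lower. For the interaction 12 were positive and 4 negative, or 70.6% and 23.5%, beside 34.9% and 35.1% of all genes. The median log2 fold change was −0.60 in shCtrl cells, 0.52 in shAnxa2 cells and 1.04 for the interaction. Each of the 11 genes that fell in shCtrl cells rose in shAnxa2 cells, and each of the 4 that rose fell. Opposite directions were not particular to this list, since 98.6% of all genes that passed in both lines had them.

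Fos, an immediate early transcription factor, had 318, 400 and 348 counts in shCtrl-CTRL, 58, 81 and 54 in shCtrl-OGDR, 73, 96 and 93 in shAnxa2-CTRL and 163, 159 and 136 in shAnxa2-OGDR. It fell after OGD/R in shCtrl cells (log2 fold change −2.32, adjusted p = 1.15e-12, edgeR's quasi-likelihood test) and rose in shAnxa2 cells (0.83, adjusted p = 4.76e-05, same test), with an interaction of 3.16 (standard error 0.208). Fos thus had the same directions as Dusp6, and so did many other genes. Of the 5239 genes that passed in both lines, 2610 were lower in shCtrl and higher in shAnxa2 cells after OGD/R. Hbegf, a ligand of the EGF receptor, had log2 fold changes of −1.35 and 0.64 after OGD/R in the lines, and an interaction of 1.98 (standard error 0.142). Plaur, the urokinase receptor, had changes of −1.02 and 0.86, and an interaction of 1.88 (standard error 0.109). Jun, Junb, Ccnd1, Ier2, Egr3, Emp1, Slc20a1 and Map2k3 likewise fell in shCtrl cells and rose in shAnxa2 cells.

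The 4 output genes that moved the other way were Myc, Ier3, Etv1 and Mcl1. Myc, a growth regulator, had 47, 74 and 78 counts in shCtrl-CTRL, 284, 255 and 183 in shCtrl-OGDR, 158, 172 and 191 in shAnxa2-CTRL and 57, 89 and 47 in shAnxa2-OGDR. It rose after OGD/R in shCtrl cells (1.99, adjusted p = 4.58e-11, edgeR's quasi-likelihood test) and fell in shAnxa2 cells (−1.42, adjusted p = 6.98e-08, same test), with an interaction of −3.41 (standard error 0.22). Ier3, a regulator of survival, and Etv1, the remaining PEA3 group factor, had interactions of −1.39 and −1.33. Etv1 was higher in shAnxa2-CTRL, at 59.3 CPM, than in the other groups, which lay between 31.2 and 41.8 CPM. For the 3 PEA3 genes the interaction was thus 1.77 for Etv5, −0.07 for Etv4 and −1.33 for Etv1.

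**Figure D3:**
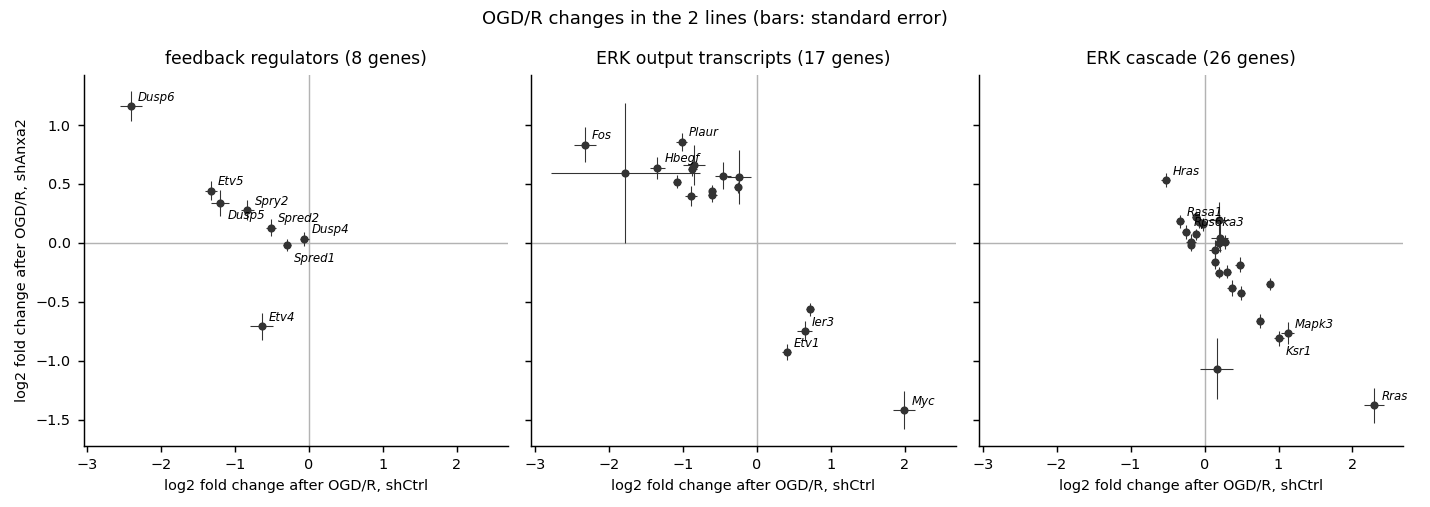
Log2 fold change after OGD/R in shCtrl cells (horizontal axis) and in shAnxa2 cells (vertical axis) with standard errors (bars), for the 8 feedback regulators, 17 ERK output transcripts and 26 genes of the ERK cascade. Dusp6 and Fos lie at the upper left, Myc and Rras at the lower right, and Etv4 at the lower left.

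The ERK cascade list holds adaptors, RAS proteins and their regulators, RAF and MEK kinases, the ERKs and their RSK substrates, and 26 of its 28 genes were tested. Here the counts lay the other way from those of the output list. After OGD/R in shCtrl cells 13 rose and 5 fell, in shAnxa2 cells 5 rose and 12 fell, and between the lines after OGD/R 4 were higher and 12 lower in shAnxa2 cells. For the interaction 8 were positive and 14 negative, with a median of −0.23. In percent these were 30.8% and 53.8%, beside 34.9% and 35.1% of all genes. Without shAnxa2-CTRL replicate 1 or 3, 3 genes in place of 5 rose in shAnxa2 cells, and without shCtrl-CTRL replicate 2 or 3, 5 in place of 8 had a positive interaction. Rras, a RAS-related GTPase, was at 2.27 CPM in shCtrl-CTRL, 11.2 in shCtrl-OGDR, 6.37 in shAnxa2-CTRL and 2.45 in shAnxa2-OGDR. Its interaction was −3.67 (standard error 0.203, adjusted p = 7.46e-14, edgeR's quasi-likelihood test). Mapk3, which encodes ERK1, rose in shCtrl cells (1.13) and fell in shAnxa2 cells (−0.76), with an interaction of −1.89, and Ksr1, the scaffold of RAF, MEK and ERK, had an interaction of −1.81. Hras had the largest positive interaction of the list, 1.06 (standard error 0.0854), followed by Rasa1 (0.52), a GTPase-activating protein of RAS, and Rps6ka3 (0.35), which encodes RSK2.

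Of the 10 tested genes of other MAPK phosphatases, 4 fell and 3 rose after OGD/R in shCtrl cells, 3 rose and 3 fell in shAnxa2 cells. Between the lines after OGD/R 7 were higher in shAnxa2 and 2 lower. The interaction was positive for 5 and negative for 4. Ptpn7, a phosphatase of blood cells that acts on ERK, had an interaction of 1.42 (standard error 0.0663), and Dusp7, the close relative of Dusp6, one of 1.17 (standard error 0.0938). The values of Dusp7 after OGD/R were −0.63 in shCtrl cells and 0.54 in shAnxa2 cells. Dusp1, an immediate early phosphatase, had an interaction of 0.85. Dusp8 (−2.60) and Dusp10 (−2.20), whose products act mainly on JNK and p38, and Dusp22 (−0.63) had negative interactions. Dusp8 was at 0.38 CPM in shCtrl-CTRL, so its change rests on few counts.

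Other negative regulators of receptor kinase, RAS and ERK signalling had 14 tested genes. After OGD/R 5 rose and 2 fell in shCtrl cells, and 4 rose and 5 fell in shAnxa2 cells. The interaction was positive for 5 and negative for 6, or 35.7% and 42.9%, beside 34.9% and 35.1% of all genes. Spred3, the third Spred gene, had an interaction of −1.15 (standard error 0.234, adjusted p = 1.17e-04, edgeR's quasi-likelihood test), opposite in sign to the values of Spred1 (0.28) and Spred2 (0.64). The RAS GTPase-activating genes Rasal3 (1.00), Rasa2 (0.68) and Rasal1 (0.26) had positive interactions, and Rasa3 (−0.92) a negative one. The Rasal1 interaction no longer passed without a filter (0.23, adjusted p = 0.0584 in edgeR), nor with 1 of 6 libraries left out, shAnxa2-CTRL replicate 2, shAnxa2-OGDR replicate 2 or 3, shCtrl-CTRL replicate 2 or 3 or shCtrl-OGDR replicate 2, where it was 0.20 to 0.23. Lztr1, an adaptor that directs RAS proteins to degradation, had an interaction of −0.87. Without replicate 2 or 3 of either shAnxa2 group, 2 genes in place of 4 rose in shAnxa2 cells, and without shAnxa2-CTRL replicate 2 or shAnxa2-OGDR replicate 3, 3 in place of 5 had a positive interaction.

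Of the 14 tested ETS and ternary complex factors, 6 fell and 1 rose after OGD/R in shCtrl cells, 6 rose and 1 fell in shAnxa2 cells, and the interaction was positive for 7 and negative for 2. Srf, which encodes serum response factor, had 127 ± 4.21 CPM (SD, n = 3) without and 66.2 ± 2.42 CPM with OGD/R in the control line, and 62.0 ± 3.44 and 111 ± 6.27 CPM in the knockdown line. Srf fell after OGD/R in shCtrl cells (−0.94, adjusted p = 3.07e-13, edgeR's quasi-likelihood test) and rose in shAnxa2 cells (0.84, adjusted p = 1.15e-11, same test). Erf, an ETS repressor that ERK inactivates, had an interaction of 1.65 (standard error 0.0852), and Elf4 one of 0.56. Elk3 (−0.40) and Ets1 (−1.23, standard error 0.543) had negative interactions. Ets1 was at 0.311 to 2.78 CPM in the groups, and its interaction no longer passed without shAnxa2-CTRL replicate 2 (−0.54, adjusted p = 0.416, edgeR's quasi-likelihood test). Without this library, and without any of 6 others, 1 gene of the list in place of 2 had a negative interaction. The 1 gene that rose in shCtrl cells was Ets1, and it no longer passed without shCtrl-CTRL replicate 2 or 3 or shCtrl-OGDR replicate 1 or 3, nor with DESeq2 (0.60, adjusted p = 0.0634). Without shAnxa2-OGDR replicate 1, 2 genes in place of 1 fell in shAnxa2 cells, and without shAnxa2-OGDR replicate 3, 2 in place of 1 rose in shCtrl cells.

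Of the 14 tested receptor kinases and ligands, 7 rose and 3 fell after OGD/R in shCtrl cells, and 3 rose and 6 fell in shAnxa2 cells. The interaction was positive for 4 and negative for 8, or 28.6% and 57.1%, beside 34.9% and 35.1% of all genes. Csf1r fell after OGD/R in shCtrl cells (−0.34, adjusted p = 2.67e-07, edgeR's quasi-likelihood test) and rose in shAnxa2 cells (0.32, adjusted p = 1.48e-06, same test), with an interaction of 0.66 (standard error 0.0615). The rise of Flt1, a VEGF receptor, in shAnxa2 cells (0.15) no longer passed without shAnxa2-CTRL replicate 2 or shAnxa2-OGDR replicate 1 or 3. Flt1 and Pdgfb, a PDGF ligand, had interactions of 0.63 and 0.40. Vegfa (−1.79), Pdgfa (−1.48) and the insulin receptor gene Insr (−1.01) had negative interactions.

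**Figure D4:**
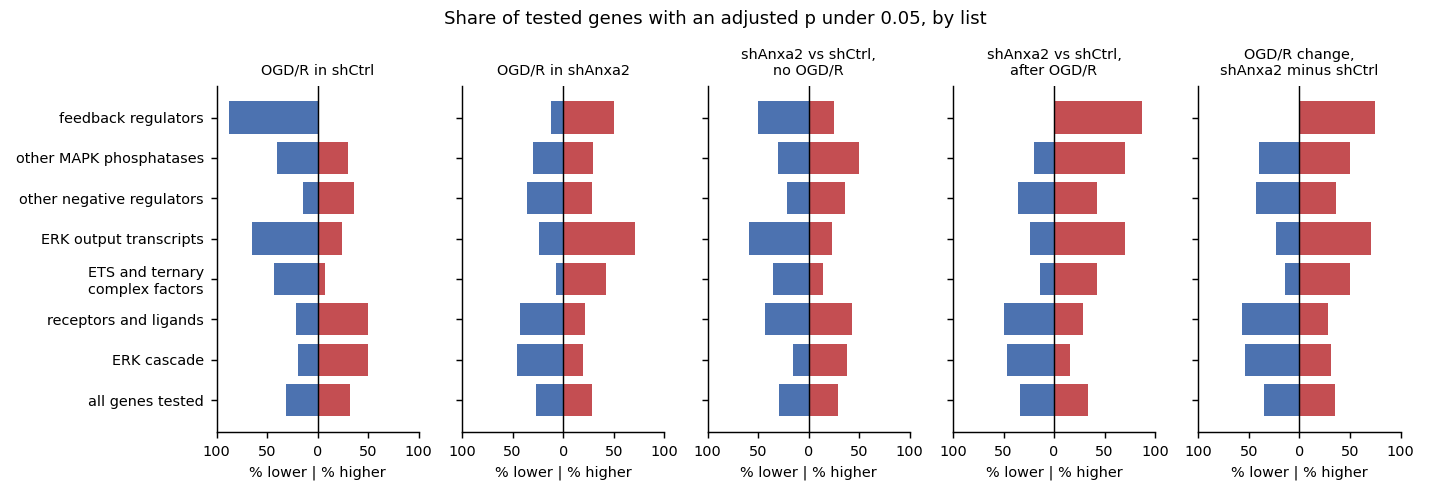
Share of the tested genes of each list, in percent, that were lower (left, blue) or higher (right, red) with an adjusted p under 0.05 in each comparison, with all genes tested in the lowest bar. Lower after OGD/R in shCtrl cells are 87.5% of the 8 feedback regulators, 64.7% of the 17 ERK output transcripts and 31.0% of all genes. The regulators and lists were chosen with earlier results of these data known, so these shares are a description and no test.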

How the data were processed

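RNA of 12 BV2 libraries, 3 per group, was sequenced. The submitters' processing notes name HISAT2 2.0.4 and the build mm39, while the study's methods, written for another tissue, name other programs, and whether counting used strand is not given in the sources used here. The authors deposited 1 table with raw read counts per gene, whose file name speaks of FPKM but whose header and whole numbers are counts. A further 12 columns of the same names, normalised by the authors with DESeq2, were not used. Levels per kilobase used exon lengths of GENCODE's annotation of GRCm38, and no coordinates were moved between builds.

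Genes with at least 0.5 CPM in at least 3 libraries (11626 of 21834) were tested with edgeR 4.0.16 (R 4.3.3) by the quasi-likelihood test, with TMM scaling, all 12 libraries in 1 model and Benjamini-Hochberg adjustment. A gene passed at an adjusted p under 0.05, and the 2-fold counts also asked for a log2 fold change of at least 1. Depth was 19521877 to 27288843 counts, and the TMM factors lay between 0.98 and 1.016. Chi-square statistics per gene between libraries of 1 group were 4 to 13.3, so no library repeated another within counting noise. Scripts were tested on simulated counts. Python 3.11.15 made the other summaries and the plots.

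The members and lists were chosen with earlier results of these data known. Pathway genes were named by a rule, the 3 per list and direction with the largest interaction among those that passed and had a mean of at least 1 CPM. Other genes that the text lists as calls fall outside it and were chosen after their values were seen. Nearest genes were the 5 with the smallest centred root mean square difference, at a pseudocount of 0.1. Alternatives were other scalings and filters, DESeq2 1.42.0, limma 3.58.1 voom, the compared groups alone, a replicate block and leaving out each library.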

Additional observations from a re-analysis of the deposited data

Results flagged for a closer look

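Among the feedback regulators, 5 genes moved one way after OGD/R in every shCtrl library and the other way in every shAnxa2 library, relative to the untreated libraries of the same line. The OGD/R change in shAnxa2 minus that in shCtrl was 1.54 for Dusp5, 3.57 for Dusp6, 1.11 for Spry2, 0.64 for Spred2 and 1.77 for Etv5, on the log2 scale. Spred2 did not pass after OGD/R in shAnxa2 cells (0.13, standard error 0.0691). Of the 5239 genes that passed in both lines, 98.6% moved in opposite directions. How many of all genes moved so in every library was not counted. The feedback regulators were selected with the differences between the lines in view, so the values are a description. The difference was not tested as independent evidence.

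The named pathway genes are listed because their OGD/R changes differed between the lines by the interaction term of edgeR's model (adjusted p under 0.05 for each). Positive values, a higher OGD/R change in shAnxa2 cells, were those of Fos (3.16), Hbegf (1.98), Plaur (1.88), Srf (1.78), Erf (1.65), Ptpn7 (1.42), Dusp7 (1.17), Hras (1.06), Rasal3 (1.00), Dusp1 (0.85), Rasa2 (0.68), Csf1r (0.66), Flt1 (0.63), Elf4 (0.56), Rasa1 (0.52), Pdgfb (0.40), Rps6ka3 (0.35) and Rasal1 (0.26). Negative values were those of Rras (−3.67), Myc (−3.41), Dusp8 (−2.60), Dusp10 (−2.20), Mapk3 (−1.89), Ksr1 (−1.81), Vegfa (−1.79), Pdgfa (−1.48), Ier3 (−1.39), Etv1 (−1.33), Ets1 (−1.23), Spred3 (−1.15), Insr (−1.01), Rasa3 (−0.92), Lztr1 (−0.87), Dusp22 (−0.63) and Elk3 (−0.40). Those of Ets1 and Rasal1 no longer passed under several alternatives (Ets1 with 7 and Rasal1 with 6 of the 12 libraries left out in turn). Over all genes tested the interaction passed for 34.9% with a positive and 35.1% with a negative value.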

How the results depend on the processing

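Of the 792 log2 fold changes of members under alternatives, 783 kept direction and side of the threshold, 4 reversed, 3 no longer passed and 2 newly passed. With 1 library left out, values crossed 0 for Dusp4 after OGD/R in shAnxa2 cells (−0.014 to 0.064), Spry2 between the untreated lines (−0.032 to 0.074) and the Etv4 interaction (−0.19 to 6.41e-04). None of these had passed. The members higher after OGD/R in shAnxa2 cells numbered 2 to 4, with 2 without shAnxa2-CTRL replicate 2, where Dusp5 (0.30) and Spry2 (0.23) no longer passed. Without shCtrl-CTRL replicate 2, Dusp5 did not pass between the untreated lines (−0.29). Left-out libraries also turned the direction of Elk3 (−0.029 to 0.069) and Pdgfb (−0.011 to 0.061) after OGD/R in shCtrl cells, Ets1 after OGD/R in shAnxa2 cells (−1.02 to 0.057), Pdgfb between the lines after OGD/R (−0.0082 to 0.25) and Rasa2 between the untreated lines (−0.038 to 0.056). The last was also positive with median-of-ratios scaling (4.10e-04), without a filter (0.0067), with a filter of 1 CPM (0.0029), with DESeq2 (4.16e-04) and with the compared groups alone (0.0031). The cause was not tested. Counts that moved by over 1.5 times with library totals alone or without a filter were cascade genes with a positive interaction (5 in place of 8), other negative regulators that rose in shAnxa2 cells (2 in place of 4) and ETS factors that fell there (2 in place of 1). The ETS factors that rose in shCtrl cells numbered 0 with DESeq2 and 2 with a filter of 1 CPM, in place of 1. The Rasal1 interaction did not pass without a filter (0.23), nor that of Ets1 with limma voom (−1.07).

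Same-numbered libraries of different groups did not deviate together (correlations −0.051 to 0.13, and 6 of 12 libraries closest to their own number), so the numbers were not taken as pairs. With a replicate block, 3 of 310 results changed, the Ets1 interaction (−1.23, adjusted p = 0.057 in edgeR), Rasal1 between the untreated lines (−0.17, adjusted p = 0.0498 in edgeR) and the ETS factors with a negative interaction (1 in place of 2). Depth limits Spry1 and Spry4, at 0 to 5 counts.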

Other observations

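Egr1, an immediate early ERK target, had 0 counts in 11 libraries and 2 counts in shAnxa2-OGDR replicate 3, while Egr2 and Egr3 had enough counts to be tested. Spry3, on the list of other negative regulators, was not found by name in the deposited count table. Lif, on the ERK output list, had 0 to 19 counts per library.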
